A study of Mus with 8 samples.

Results

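The dermal extracellular matrix genes are a list of 38 genes for collagens, proteoglycans, elastic fibre proteins and the proteins that process or degrade the matrix. They were chosen by name, and all 38 were found among the 14980 genes that the deposited tables name by a single symbol. Each gene is represented by the probeset with the highest mean log2 intensity over the 8 arrays. For testing, 37 of the 38 remained among 11235 genes whose mean lay above the 25th percentile, and Col12a1 was the member left out as dim.

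The arrays measured RNA from skin with its hair follicles of male C57BL6 mice, which arrived at 6 weeks of age and were acclimatised for 7 days. The hair was trimmed and removed in all groups, and the skin then received a topical treatment for 20 days. The untreated group received MilliQ water, and the other groups received 1% minoxidil (a vasodilator used against hair loss, the positive control), 1% keratin (the structural protein of hair) or 1% microsphere keratin. The labels give 5 mice in each group. Each group had 2 arrays, numbered 1 and 2. Whether they hold RNA of different mice, of pools or of a repeated extract is not stated in the labels. The p-values therefore measure only the spread between these arrays, which may be technical.

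The dermis is built by fibroblasts, which secrete fibrillar collagens that are trimmed, assembled into fibrils and cross-linked outside the cell. Small leucine-rich proteoglycans such as decorin and lumican bind these fibrils and set their width and spacing, while fibrillin, elastin and fibulins form the elastic fibres that let skin recoil. Matrix metalloproteinases and their inhibitors govern turnover, and the dermis around a hair follicle is remodelled as the follicle passes through its growth cycle.

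Over all probesets, the correlation of minoxidil array 1 with any other array was 0.390 to 0.474, and among the remaining 7 arrays it was 0.886 to 0.988. Minoxidil array 1 was also low in the 3′ control probeset of beta-actin, at 47.2 compared with 656 for untreated array 1 and more elsewhere. Array medians lay between 35.9 and 37.7, and the lowest values, 13.8 to 22.5 per array, are a residual background, so that differences of dim genes are understated. The keratinocyte gene Krt5 read 163 in minoxidil array 1 and 258 to 580 in the other arrays, and Krt14 read 89.2 and 227 to 435. Both were thus above the array medians in all 8. The keratinocyte genes Krt10 and Krt1 read 28.7 and 36.8 in minoxidil array 1, no higher than the range of array medians. Elsewhere they read 44.0 to 93.8 and 43.3 to 80.8. Results that rest on minoxidil array 1 are given with and without it.

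The main feature of the matrix genes was a shared high level in keratin array 1 and microsphere keratin array 1. These arrays were the 2 highest of the 8 in 27 of the 38 members, an order that 7.94% of all named genes had. The mean log2 level of the 38 members was 6.86 in keratin array 1 and 6.90 in microsphere keratin array 1. It was 6.23 in keratin array 2, 6.30 in microsphere keratin array 2, 6.30 and 6.20 in untreated arrays 1 and 2, and 6.36 in minoxidil array 2. In minoxidil array 1 it was 5.46, and this array was the lowest of the 8 in 29 members, against 40.7% of all named genes. By this mean, the second array of each keratin group thus lay at the untreated level, and each keratin group was split between its 2 arrays. The parts of array number and of treatment in this split were not tested. In bulk skin, fewer cells of a type and less RNA per cell cannot be told apart.

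**Figure D1:**
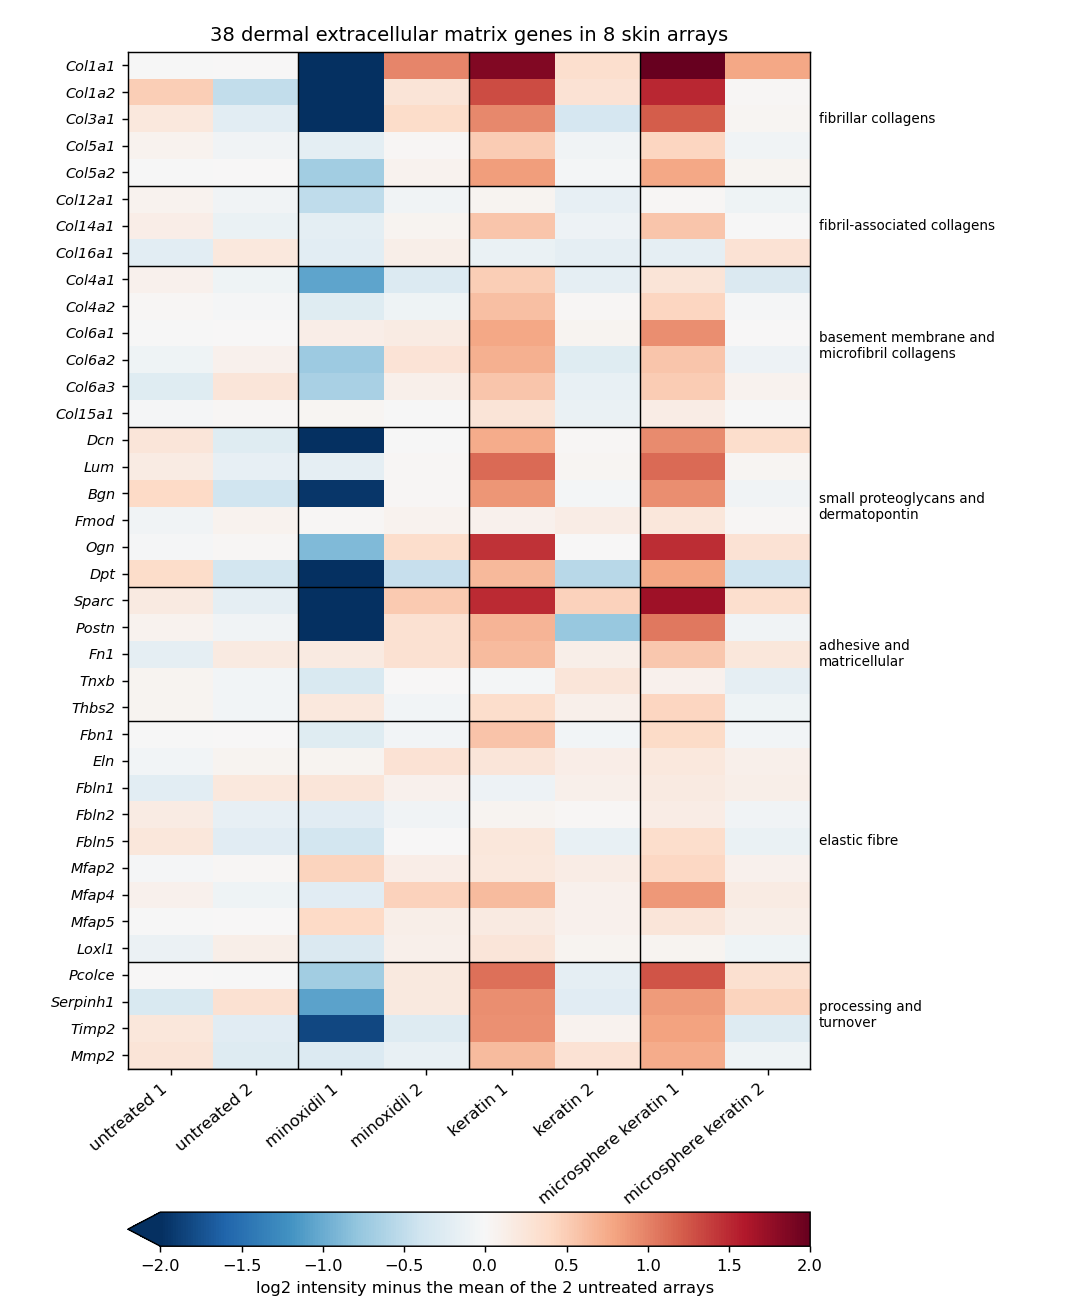
Log2 intensity of each of the 38 matrix genes (rows, grouped by role) in each of the 8 arrays (columns), minus the mean of the 2 untreated arrays, with colours limited at -2 and 2. Keratin array 1 and microsphere keratin array 1 are red in most rows, minoxidil array 1 is blue in most, and the elastic fibre rows are pale.

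The 11 members whose chosen probesets departed from this order were Col12a1, Col16a1, Fmod, Eln, Fbln1, Fbln2, Fbln5, Mfap2, Mfap5, Tnxb and Loxl1. Of these, 7 belong to the elastic fibre. A set of 9 members stayed below 1.5 times the array median in every array, and 8 of the 11 exceptions are among them. Low signal and a flat pattern thus largely coincided in these genes. The second probesets of Mfap2 and Mfap5 did have the order.

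Skin treated with keratin had a higher mean level than untreated skin in 35 of the 38 members, against 66.0% of all named genes, but no difference passed the test. The median log2 difference of the 37 tested members was 0.24, and that of all genes tested was 0.10. The interval of Col1a1, the member with the largest difference, ran from -1.54 to 3.73 on the log2 scale around 1.10. Limma called 0 of the 11235 genes at a Benjamini-Hochberg adjusted p below 0.05, and 46 genes (0.409%) but no member had an unadjusted p below 0.05. The smallest member p was that of Fn1, at 0.164 (adjusted p = 1.00). Both keratin arrays lay above both untreated arrays in 9 members, and in 0 members below; 17.4% of all named genes were of the first kind and 9.62% of the second. Of these 9, the 5 with the largest differences were Col1a1, Sparc, Mmp2, Col6a1 and Thbs2. Both same-numbered pairs were higher in 17 members, against 37.3% of named genes, and the list median rested on keratin array 1: without that array it was 0.02, with 21 of 37 tested members higher, and without keratin array 2 it was 0.61.

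Microsphere keratin gave a like picture against the same untreated arrays. The mean level was higher in 34 of 38 members, against 65.1% of all named genes, with a median of 0.27 over the tested members and 0.10 over all genes tested. Limma called 0 genes, and 10 genes (0.089%) but no member reached an unadjusted p below 0.05. Fn1 again had the smallest member p, at 0.160 (adjusted p = 1.00). Both arrays lay above both untreated arrays in 12 members, against 13.0% of named genes, and below in 0 members, against 10.6%. The 5 with the largest differences were Col1a1, Sparc, Ogn, Pcolce and Serpinh1. Both same-numbered pairs were higher in 23 members, against 33.5% of named genes. Without microsphere keratin array 1 the median was 0.03, with 20 of 37 members higher, and without microsphere keratin array 2 it was 0.55. The keratin and microsphere keratin comparisons share their control arrays.

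Skin treated with minoxidil had lower mean levels in 28 of 38 members and higher ones in 10, while 49.2% of all named genes were higher. The median of the tested members was -0.16, beside -0.02 for all genes tested. Limma called 0 genes, and 50 (0.445%) but no member had an unadjusted p below 0.05, the smallest member p being 0.0955 for Mfap5 (adjusted p = 1.00). Both same-numbered pairs were lower in 9 members, against 19.7% of named genes, and higher in 6, against 20.3%. The sign of this comparison came from minoxidil array 1. Without that array the median turned to 0.08, with 27 of 38 tested members higher. Without minoxidil array 2, the opposite omission, the median was -0.29, and limma called 904 genes, 3 of them members, on the assumption that the lone minoxidil array varies like the arrays of the other groups.

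The groups did not overlap in 5 members that were lower with minoxidil, against 5.38% of named genes, and in 4 that were higher, against 7.52%. The lower ones were Dpt, Timp2, Col4a1, Col4a2 and Fbn1. The higher ones were Mfap2, Mfap5, Fn1 and Col6a1, with log2 differences of 0.29, 0.26, 0.25 and 0.15. Mfap2, which codes for a microfibril protein, read 73.1 and 59.0 with minoxidil and 52.8 and 54.3 in untreated skin. Mfap5, a related microfibril gene, read 48.6 and 39.7 with minoxidil and 36.5 and 37.1 without. In both genes the upper minoxidil value was that of array 1, in which most other members were at their lowest. The second probesets of these genes did not rise in that array. Mfap2 there read 37.3 against 37.9 in untreated array 1, and Mfap5 36.6 against 38.4. Within the number 2 arrays these second probesets were 0.27 and 0.12 higher with minoxidil on the log2 scale.

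Between microsphere keratin and keratin, both at 1%, no member's difference passed the test. The median difference of the tested members was 0.02, that of all genes tested was -0.01, and 25 of 38 members were higher with microspheres, against 45.3% of named genes. Limma called 0 genes, with 14 (0.125%) but no member at an unadjusted p below 0.05; the smallest member p was 0.370 for Loxl1 (adjusted p = 1.00). Fbln1 was the sole member higher without overlap (0.14 ± 0.18 SE) and Loxl1 the sole member lower (-0.17 ± 0.18 SE), against 6.59% and 11.9% of named genes. The direction of Fbln1 held for its chosen probeset only. Another Fbln1 probeset was lower without overlap, at 40.9 and 41.6 with microsphere keratin and 44.9 and 45.4 with keratin. The remaining Fbln1 probeset overlapped. Both same-numbered pairs were higher in 11 members, against 18.3%. The median changed sign with the array left out: it was 0.26 without keratin array 1, -0.28 without keratin array 2, -0.27 without microsphere keratin array 1 and 0.32 without microsphere keratin array 2. The largest member difference was that of Postn, at 0.53 ± 0.84 (SE), with a 95% interval from -1.38 to 2.44. In the limma test for any difference among the 4 groups, 0 genes were called and 15 (0.134%), none of them a member, had an unadjusted p below 0.05. Without minoxidil array 2 that test called 198 genes.

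Set side by side within the array numbers, the treatments differed from untreated skin mainly in the number 1 arrays. Keratin array 1 was higher than untreated array 1 in 34 members, where 69.8% of all named genes were higher, and 15 members were so by at least 1.5-fold (8.95% of named genes). Keratin array 2 was higher than untreated array 2 in 20 members (50.2% of named genes), 2 of them by at least 1.5-fold (0.648%). For microsphere keratin the corresponding counts were 36 and 16 (9.59%) in the number 1 arrays, and 24 and 2 (0.360%) in the number 2 arrays, while 64.2% and 50.9% of named genes were higher in these pairs. Untreated array 1 was low in beta-actin and read 738 for BioB, a bacterial control transcript, against 96.3 in untreated array 2, so the treated arrays were also set against untreated array 2: there keratin array 1 was at least 1.5-fold higher in 21 members (2.38%) and microsphere keratin array 1 in 17 (1.68%). In these pairs 36 and 35 members were higher, against 42.4% and 37.3% of named genes. For minoxidil, 29 members were lower in the number 1 arrays, where 47.6% of named genes were higher, and 16 of them were so by at least 1.5-fold (13.4%). In the number 2 arrays 26 were higher with minoxidil (53.0% of named genes), 3 of them by at least 1.5-fold (0.514%): Col1a1, Col1a2 and Sparc.

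**Figure D2:**
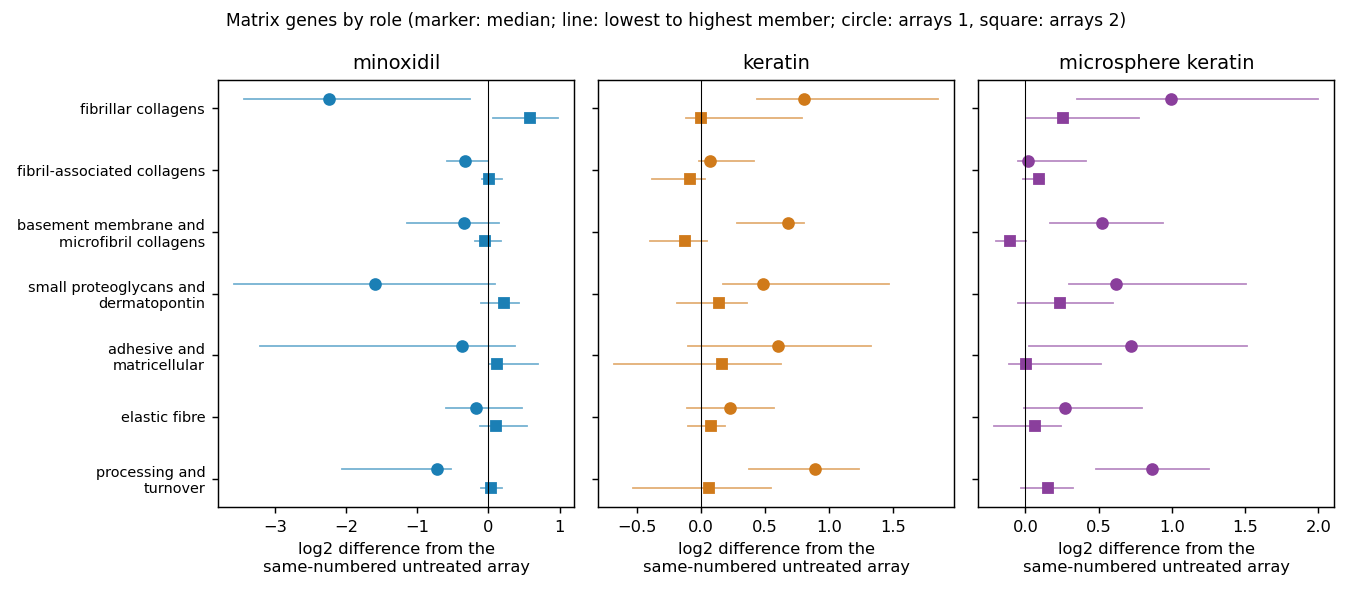
Log2 difference from the same-numbered untreated array for each role of the matrix genes, with the median member as a circle (arrays 1) or a square (arrays 2) and a line from the lowest to the highest member; horizontal scales differ between panels. Fibrillar collagens have medians of 0.81 and 0.99 in keratin and microsphere keratin arrays 1, -2.24 in minoxidil array 1, and at most 0.58 in the number 2 arrays.

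Fibrillar collagens form the cables that give the dermis its strength. All 5 of these genes had higher group means with keratin and with microsphere keratin, and lower ones with minoxidil. The lower minoxidil means came from minoxidil array 1, with a median log2 difference of -2.24 within the number 1 arrays. Within the number 2 arrays all 5 were higher with minoxidil, by a median of 0.58. Col1a1, which codes for the alpha-1 chain of type I collagen, read 144 and 145 in untreated arrays 1 and 2, and 30.6 and 285 in minoxidil arrays 1 and 2. It read 521 and 183 in the keratin arrays and 578 and 247 in the microsphere keratin arrays. All 4 keratin and microsphere keratin values lay above the untreated ones, as did minoxidil array 2, and the untreated arrays agreed closely. The log2 difference was 1.10 ± 1.15 for keratin and 1.39 ± 1.15 for microsphere keratin (SE, 2 arrays a group). With an SD of 0.82 on the log2 scale over the 7 arrays other than minoxidil array 1, Col1a1 was the most variable member.

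Col1a2, the alpha-2 chain of the same collagen, read 660 and 331 in untreated skin, 72.7 and 559 with minoxidil, 1154 and 571 with keratin, and 1324 and 476 with microsphere keratin. Unlike Col1a1, it overlapped between untreated skin and each treatment, and untreated array 1 was 2.00-fold above untreated array 2. Col3a1, which codes for type III collagen, read 644 and 478, 59.7 and 714, 1083 and 441, and 1280 and 571 in the same order. Keratin array 2 was here below both untreated arrays. The genes of type V collagen, a minor collagen that starts fibrils, moved over a narrower range. Col5a2 read 62.3 and 63.5 in untreated skin, 38.9 and 66.1 with minoxidil, 113 and 61.1 with keratin, and 108 and 65.6 with microsphere keratin. Both microsphere keratin values lay above the untreated ones, that of array 2 by a small margin (0.42 ± 0.42 SE). Col5a1 ranged from 41.2 in minoxidil array 1 to 66.9 in keratin array 1.

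**Figure D3:**
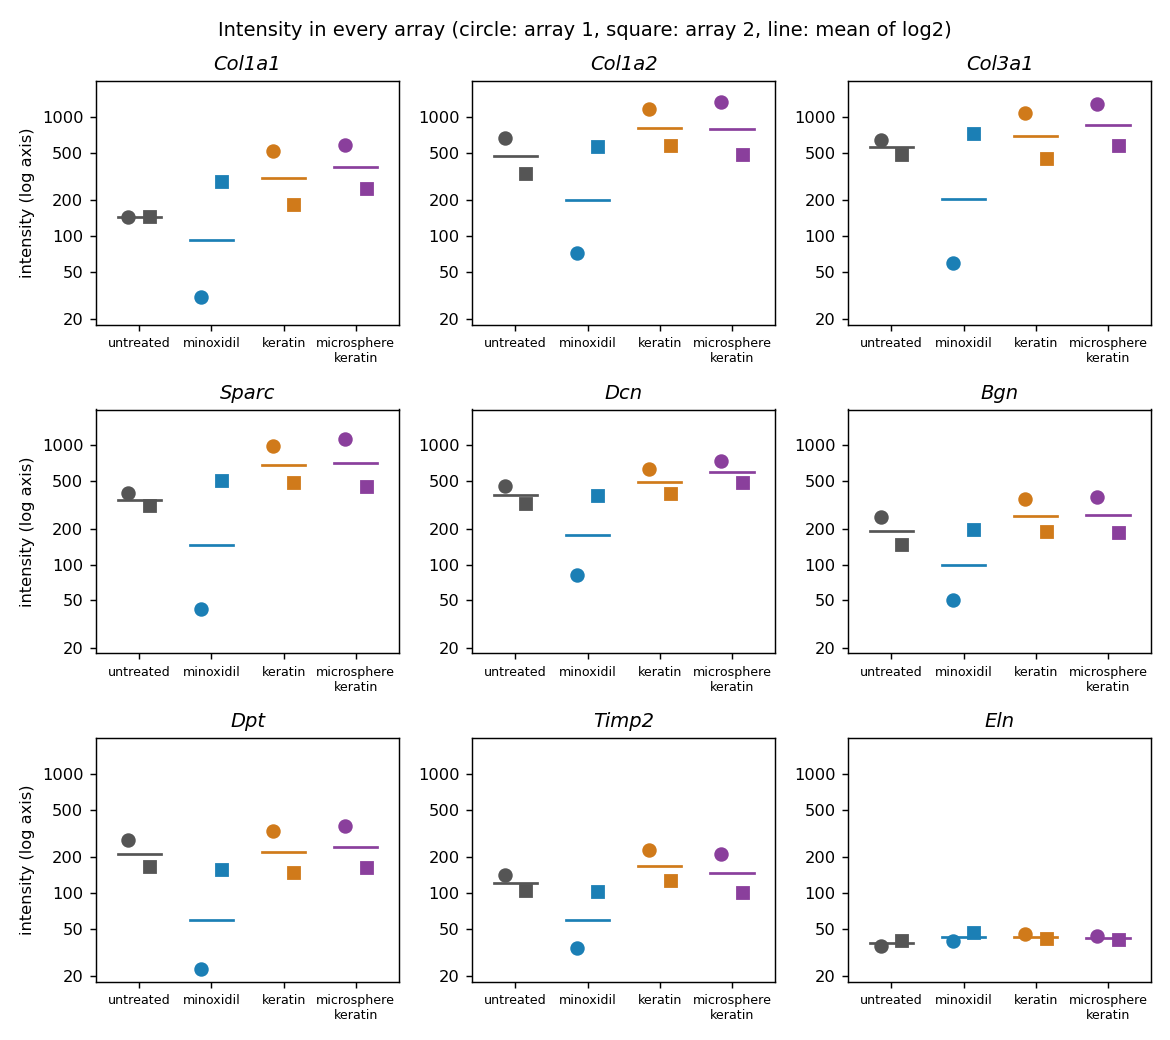
Intensity on a log axis of 9 matrix genes in every array, with array 1 as a circle, array 2 as a square and the mean of the log2 values as a line. In Col1a1, Col1a2, Col3a1, Sparc, Dcn, Bgn, Dpt and Timp2 the circles of both keratin groups are the highest points and the minoxidil circle is the lowest, while Eln stays between 36.3 and 46.4.

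The fibril-associated collagens, which decorate the surface of fibrils, varied little. Col14a1 read 52.7 and 43.6 in untreated skin, 42.1 and 49.6 with minoxidil, 70.3 and 44.5 with keratin, and 70.2 and 47.5 with microsphere keratin, and so followed the fibrillar genes. Col16a1 read 54.4 and 72.2, 53.9 and 68.1, 57.1 and 55.4, and 55.0 and 76.8 in the same order. It was highest in microsphere keratin array 2, and its difference between microsphere keratin arrays 1 and 2, -0.48, was the sole negative one of the 38. Col12a1 read 39.4 and 35.7 in untreated skin and 33.7 to 39.0 in the keratin and microsphere keratin arrays. Its SD of 0.08 over 7 arrays was the smallest of the list.

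Type IV collagen makes the sheet of basement membranes, type VI collagen the beaded microfibrils around cells, and type XV collagen lies beneath basement membranes. All 6 members were higher in keratin array 1 than in keratin array 2, and likewise in microsphere keratin array 1 than in array 2. Col6a1 read 71.8 and 73.1 in untreated skin, 79.4 and 81.3 with minoxidil, 124 and 75.0 with keratin, and 138 and 73.0 with microsphere keratin. Both keratin values were above the untreated ones (0.41 ± 0.45 SE), the second by a small margin. It was also among the 9 members that minoxidil array 1 did not have as its lowest. Col4a1 read 93.1 and 82.0 in untreated skin, 42.3 and 72.1 with minoxidil, 123 and 77.1 with keratin, and 104 and 71.3 with microsphere keratin. Both minoxidil values were below the untreated ones (-0.66 ± 0.42 SE), but the number 2 arrays of both keratin groups were below them as well. Col4a2 read 73.6 and 70.7, 60.9 and 68.2, 109 and 73.1, and 96.7 and 70.7 in the same order, with no number 2 array far from the untreated values. Col6a2 and Col6a3, the partner chains of Col6a1, were 1.94- and 1.62-fold higher in keratin array 1 than in keratin array 2.

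Among the small proteoglycans, Dcn (decorin) read 455 and 322 in untreated skin, 82.2 and 379 with minoxidil, 637 and 387 with keratin, and 737 and 487 with microsphere keratin. Both microsphere keratin values exceeded the untreated ones, with a log2 difference of 0.65 ± 1.11 (SE). Bgn (biglycan) read 253 and 146, 50.04 and 195, 354 and 186, and 367 and 183 in the same order. Its groups overlapped throughout, with the number 2 arrays below untreated array 1. Dpt codes for dermatopontin, a small protein that links decorin to collagen. It read 276 and 166 in untreated skin, 23.1 and 155 with minoxidil, 334 and 146 with keratin, and 368 and 162 with microsphere keratin. All 4 number 2 arrays lay close together, and both minoxidil values were below the untreated ones, the largest such difference of the list (-1.84 ± 1.01 SE). Within the number 2 arrays that difference was -0.10, and within the number 1 arrays it was -3.58.

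Ogn (osteoglycin) read 57.9 and 59.9 in untreated skin, 32.0 and 75.6 with minoxidil, 160 and 59.4 with keratin, and 164 and 72.1 with microsphere keratin. The untreated arrays and keratin array 2 were nearly level, and microsphere keratin exceeded them in both arrays (0.88 ± 0.61 SE). In the second Ogn probeset microsphere keratin array 2, at 54.8, lay below untreated array 1, at 58.8. Lum (lumican) was 143 in keratin array 1 and 143 in microsphere keratin array 1, against 57.5 to 73.0 in the other 6 arrays. Fmod (fibromodulin) was an exception, at 37.7 to 46.3 in all arrays.

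The adhesive and matricellular members hold cells to the matrix or modulate that contact. Sparc, a collagen-binding glycoprotein, read 395 and 311 in untreated skin, 42.6 and 503 with minoxidil, 989 and 480 with keratin, and 1128 and 444 with microsphere keratin. Both keratin groups lay above both untreated arrays, by 0.98 ± 1.36 and 1.02 ± 1.36 (SE), and so did minoxidil array 2. In the second Sparc probeset this held for microsphere keratin only. Untreated array 1, at 338, there exceeded keratin array 2 (319) and minoxidil array 2 (284). Postn (periostin, involved in collagen assembly) read 117 and 106, 26.4 and 137, 177 and 66.0, and 229 and 106 in the same order. Keratin array 2 was below untreated array 2, at a log2 difference of -0.68. Postn was the sole member to be lower by at least 1.5-fold in that pair, against 0.334% of named genes. Fn1, the gene for fibronectin, read 39.3 and 50.6 in untreated skin, 50.7 and 55.1 with minoxidil, 69.4 and 48.5 with keratin, and 64.7 and 52.4 with microsphere keratin. Its lowest value was in untreated array 1, not in minoxidil array 1. Thbs2 (thrombospondin 2) read 54.3 and 49.97 in untreated skin, 60.1 and 50.4 with minoxidil, 66.1 and 56.0 with keratin and 70.4 and 49.3 with microsphere keratin. It was higher in array 1 than in array 2 of all 4 groups. Tnxb (tenascin X) was highest in keratin array 2, at 52.1, and ranged from 35.5 to 46.6 elsewhere.

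Elastic fibre genes varied less than the fibrillar collagens. Their median member differed by 1.09-fold between keratin arrays 1 and 2 and by 1.17-fold between microsphere keratin arrays 1 and 2, against 2.02- and 2.24-fold for the fibrillar collagens. Eln (elastin) read 36.3 and 39.5 in untreated skin, 39.5 and 46.4 with minoxidil, 44.9 and 41.3 with keratin, and 43.7 and 40.4 with microsphere keratin. Both keratin groups lay above the untreated arrays, by 0.19 ± 0.14 and 0.15 ± 0.14 (SE). The second Eln probeset did not share this. It read 43.0 and 36.9 in untreated skin, 34.8 and 41.1 with keratin, and 38.8 and 37.0 with microsphere keratin. Mfap2 read 61.9 and 59.2 with keratin and 71.1 and 56.9 with microsphere keratin, also above the untreated 52.8 and 54.3. Differences of this size lay near the median difference of all genes, 0.10 for either keratin group.

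By the chosen probesets, the 2 elastic fibre genes that did follow the collagens were Mfap4 and Fbn1. The second probesets of Mfap2 and Mfap5 were also highest in keratin array 1 and microsphere keratin array 1. That of Mfap2 read 45.1 and 52.9 in these arrays, against 35.2 to 42.5 elsewhere. That of Mfap5 read 48.7 and 46.6, against 36.6 to 41.0 elsewhere. Mfap4, whose protein binds collagen and elastin, read 49.2 and 44.0 in untreated skin, 39.9 and 64.1 with minoxidil, 72.3 and 49.2 with keratin, and 85.4 and 52.1 with microsphere keratin. Microsphere keratin exceeded untreated skin in both arrays (0.52 ± 0.34 SE). Fbn1 (fibrillin 1) read 47.2 and 47.4, 40.2 and 45.3, 70.0 and 45.4, and 61.6 and 45.3 in the same order, so that the number 2 arrays lay close together. Fbln1, Fbln2 and Fbln5, which code for fibulins, and Loxl1, an enzyme that cross-links elastin, ranged over 1.26- to 1.497-fold among the 7 arrays other than minoxidil array 1.

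The processing and turnover members followed the fibrillar collagens. Serpinh1, the collagen chaperone of the endoplasmic reticulum, read 85.3 and 130 in untreated skin, 50.01 and 121 with minoxidil, 201 and 90.1 with keratin, and 190 and 144 with microsphere keratin. Both microsphere keratin values were above the untreated ones (0.65 ± 0.65 SE), while keratin array 2 lay between the untreated arrays. Pcolce, an enhancer of procollagen trimming, read 65.4 and 65.3, 40.5 and 74.7, 140 and 57.8, and 156 and 81.9 in the same order. Microsphere keratin again exceeded untreated skin in both arrays (0.79 ± 0.53 SE), and keratin did not. Timp2, an inhibitor of metalloproteinases, read 142 and 103 in untreated skin, 34.2 and 101 with minoxidil, 228 and 126 with keratin, and 212 and 101 with microsphere keratin. Its minoxidil values were both below the untreated ones (-1.04 ± 0.69 SE), that of array 2 by a small margin, and not all of its probesets shared this sign. Mmp2, a gelatinase, read 69.4 and 48.4, 48.2 and 52.1, 90.0 and 70.8, and 97.0 and 54.3 in the same order, and both keratin values were above the untreated ones (0.46 ± 0.35 SE).

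The difference between the arrays of a group was similar in the keratin and the microsphere keratin group, which share no array. Keratin array 1 exceeded keratin array 2 in 35 of 38 members, with a median log2 difference of 0.64, and 20 members were at least 1.5-fold higher (1.89% of named genes). Microsphere keratin array 1 exceeded array 2 in 37 members, with a median of 0.53, and 17 members were at least 1.5-fold higher (2.08%). The median of all named genes was -0.03 in both cases. At least 1.5-fold in both groups was reached by 15 members, against 0.901% of named genes. These were 4 fibrillar collagens, Col6a1 and Col6a2, 5 of the small proteoglycans and dermatopontin, Sparc and Postn, and Pcolce and Timp2. Across the 38 members the differences of the groups correlated at r = 0.82, and across all 14980 named genes at r = 0.29. The points of each share the same 4 arrays, and genes are not independent replicates. Between untreated arrays 1 and 2, 21 members were higher in array 1, 3 of them by at least 1.5-fold (0.427%), and the median was 0.09. Of all named genes 28.9% were higher there, with a median of -0.14, so relative to all genes the members were also higher in untreated array 1. Each of these differences is between single arrays and has no replicate check.

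**Figure D4:**
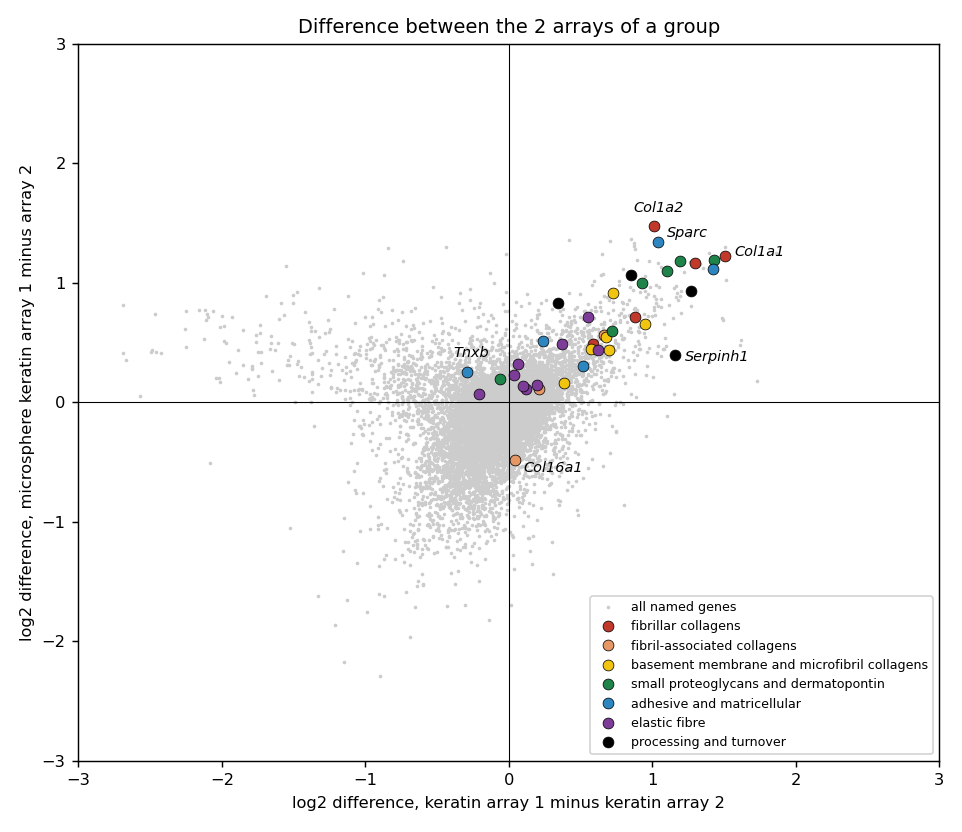
Log2 difference between arrays 1 and 2 of the keratin group (horizontal axis) and of the microsphere keratin group (vertical axis), with each named gene as a grey point and the 38 matrix genes coloured by role. Fibrillar collagens and small proteoglycans other than Fmod lie at the upper right. Elastic fibre genes lie near the origin, except Mfap4, Fbn1 and Fbln5, which lie further out. Tnxb, Fbln1, Fmod and Col16a1 lie on the far side of an axis.

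For 25 members more than 1 probeset carries the symbol in the authors' deposited tables, which gives 33 further readings of the same transcripts. Those tables list probesets by their fold and hold 28918 of the 45141. The further readings had thus passed a fold filter in these data, so their agreement in sign is no independent check. Of these, 29 had the same sign as the chosen probeset between keratin arrays 1 and 2, and 28 between microsphere keratin arrays 1 and 2. Where the chosen probeset differed by at least 1.5-fold, the sign was shared by 19 of 21 and by 17 of 17. Agreement was lower where minoxidil array 1 or the untreated arrays were compared: 21 of 33 for minoxidil array 1 against untreated array 1, 19 of 33 between the minoxidil arrays, and 15 of 33 between the untreated arrays. A further Timp2 probeset went from 58.8 (untreated array 1) to 81.8 (minoxidil array 1), a log2 difference of 0.48, where the chosen one differed by -2.05. The second Col1a1 probeset read 95.4 and 101 in untreated skin, 88.6 and 156 with minoxidil, 292 and 162 with keratin, and 320 and 168 with microsphere keratin. It had the same order of arrays as the first among the keratin groups. Its minoxidil array 1 value was 88.6, however, where the first probeset read 30.6.

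Markers of fibroblasts, the cells that make this matrix, mostly followed the same arrays. All 10 of 10 fibroblast markers were found. Their summed intensity was 1005 and 865 in untreated arrays 1 and 2, 368 and 991 with minoxidil, 1444 and 830 with keratin, and 1399 and 862 with microsphere keratin. Keratin array 1 was above keratin array 2 in 9 of the 10 markers, and microsphere keratin array 1 above array 2 in 8. Vim, the gene for vimentin, made up much of the sum, at 765 and 370 with keratin and 776 and 398 with microsphere keratin. Pdgfra, a growth factor receptor of fibroblasts, read 65.8 and 42.7 with keratin and 64.0 and 43.4 with microsphere keratin, against 51.0 and 43.0 in untreated skin.

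Macrophage markers, 9 of 9 found, summed to 458 and 463 in untreated skin, 384 and 451 with minoxidil, 833 and 466 with keratin, and 735 and 457 with microsphere keratin. All 9 were higher in array 1 than in array 2 of both keratin groups. Lyz2, the macrophage lysozyme gene, read 196 and 80.3 with keratin and 169 and 75.8 with microsphere keratin. Adipocyte markers, 5 of 8 found, summed to 1125 and 790 in untreated skin, 172 and 712 with minoxidil, 1355 and 793 with keratin, and 1025 and 623 with microsphere keratin. All 5 were higher in array 1 than in array 2 of both keratin groups. Endothelial markers, 5 of 9 found, summed to 199 to 232 in every array. They were dim, at 24.6 to 58.3 beside array medians of 35.9 to 37.7. Of these 5, 4 were higher in keratin array 1 than in array 2, and 5 in microsphere keratin array 1 than in array 2. Skeletal muscle markers, 14 of 14 found, summed to 5804 and 22100 in untreated skin, 496 and 25217 with minoxidil, 8612 and 22731 with keratin, and 17234 and 13503 with microsphere keratin, so they did not share the order of the matrix genes. Untreated array 1, the base of the number 1 differences, was thus far below untreated array 2 in muscle markers. No marker was listed at 0 in any array, but with a lowest intensity of 13.8 over all arrays no probeset was. A value above 0 therefore does not show that a cell type was present. The part of these cell types in the matrix differences was not tested.

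**Figure D5:**
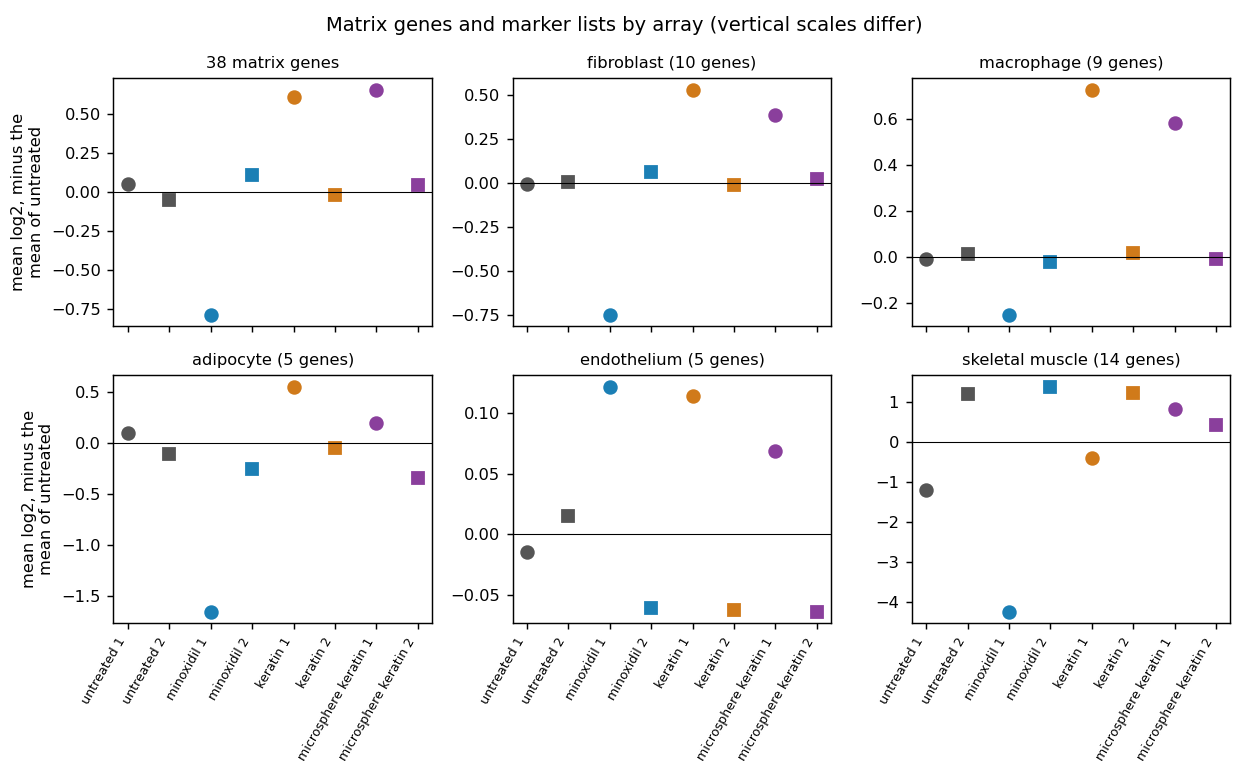
Mean log2 intensity of the 38 matrix genes and of 5 marker lists in each array, minus the mean of the untreated arrays, with array 1 as a circle and array 2 as a square; vertical scales differ between panels. Fibroblast, macrophage and adipocyte markers are highest in keratin and microsphere keratin arrays 1, as the matrix genes are. The vertical scale of the endothelial markers covers the narrowest range.

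The ratio of the 5′ to the 3′ beta-actin control probeset, a sign of how intact the labelled RNA was, moved with the same arrays. It was 0.348 in keratin array 1 and 0.361 in microsphere keratin array 1. In the other arrays it was 0.208 and 0.187 for untreated arrays 1 and 2, 0.231 for minoxidil array 2, 0.260 for keratin array 2 and 0.152 for microsphere keratin array 2. Minoxidil array 1, with its low actin signal, gave 1.44. The Gapdh ratio did not follow this order, at 0.450 and 0.462 in keratin arrays 1 and 2 and 0.387 and 0.340 in microsphere keratin arrays 1 and 2. The part of RNA quality in the matrix differences was not tested.

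The authors' deposited comparison tables, each setting a single treated array against a control, list the matrix genes unevenly too. The authors' deposited table for keratin array 1 lists 24 members, all higher (18.9% of probesets are listed higher), and their table for keratin array 2 lists 9 members higher (9.46%) and 6 lower (8.42%). The authors' deposited table for microsphere keratin array 1 lists 25 members, all higher (18.6%), and that for array 2 lists 10 higher (9.21%) and 2 lower (7.71%). The authors' deposited table for minoxidil array 2 lists 13 members higher (7.92%) and Fbln1 lower (4.59%). The tables for arrays 1 keep folds of at least 2 and the others folds of at least 1.3, so their lengths cannot be compared directly. The shares are over all 45141 probesets, of which 28918 are listed in any of the tables. A member is the brightest named probeset of its gene, so these shares are of an unlike set.

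Sizes differ between the authors' deposited tables and the value table used here. Col1a1 is 25.02-fold higher with keratin and 29.3-fold higher with microsphere keratin in the authors' deposited tables for arrays 1, while the values above give 3.61- and 3.999-fold. For Dpt the authors' deposited table for keratin array 1 gives 13.3-fold, and the values above give 1.21-fold. For Sparc the authors' deposited table gives 2.48-fold and the values give 2.51-fold. Over the 24 members listed, the median log2 difference is 3.26 in the authors' deposited table for keratin array 1 and 0.64 in the values here, with the same sign in 23. For keratin array 2 the 15 listed members have the same sign in both, as have the 12 for microsphere keratin array 2 and the 14 for minoxidil array 2.

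A further 82 genes of collagen folding, procollagen processing, turnover, other matrix proteins and matrix regulators were set beside the members. Of these, 65 were found and 50 tested, and limma called 0 of them in each of the 4 comparisons, with 0 at an unadjusted p below 0.05. Higher group means were found in 21 of the 50 with minoxidil, 39 with keratin and 43 with microsphere keratin, and in 22 for microsphere keratin against keratin. Their median differences were -0.03, 0.12, 0.10 and -0.01, close to those of all genes. Between keratin arrays 1 and 2, 7 of the 65 were at least 1.5-fold higher, and likewise 7 between microsphere keratin arrays 1 and 2, against 1.89% and 2.08% of named genes. In each of these pairs 42 of the 65 were higher in array 1, against 44.3% and 42.5% of named genes, so this wider set leaned the same way as the 38, by smaller median differences of 0.11 and 0.06. P4hb, a subunit of the enzyme that hydroxylates collagen prolines, read 59.7 and 134 in untreated skin, 38.2 and 148 with minoxidil, 124 and 140 with keratin, and 146 and 145 with microsphere keratin. It was low in untreated array 1 and minoxidil array 1 and level elsewhere. Ppib, a proline isomerase of collagen folding, had the largest difference with minoxidil (-1.46 ± 0.95 SE), at 32.2 and 214 against 232 and 227 untreated. Tgfbi, which codes for an adhesive protein induced by TGF-beta, read 214 and 218 with keratin and 145 and 130 in untreated skin. Both keratin arrays were above both untreated arrays (0.66 ± 0.80 SE), and with microsphere keratin it read 212 and 124. The remaining genes with the largest differences were Thbs1 (-1.11), Tgfbi (-0.94) and Ctsk (-0.73) for minoxidil, and Pcolce2 (0.52) and Prelp (0.46) beside P4hb (0.56) for keratin. For microsphere keratin they were P4hb (0.70), Adamts2 (0.53), Mmp3 (0.43) and Pcolce2 (0.36). Mmp3, which codes for stromelysin 1, a matrix-degrading enzyme, read 65.8 and 40.5 with keratin and 64.5 and 44.6 with microsphere keratin, against 37.9 and 41.7 in untreated skin, and so had the split of the members. Between microsphere keratin and keratin the largest differences were those of Tgfbi (-0.41), Sparcl1 (-0.39), Matn2 (0.38) and Ctsk (-0.38).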

How the data were processed

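Per the labels' protocols, 9.4 µg of total RNA was turned into biotinylated cRNA for Affymetrix HT_MG-430_PM arrays. The submitters' processing notes name RMA, Transcriptome Analysis Console and Affymetrix Expression Console, with no versions. Values were deposited as linear intensity, 45141 probesets by 8 arrays. How background was corrected in them, and how arrays were normalized to each other, is not given in the sources used here. The authors' 6 deposited comparison tables hold log2 values per condition, p-values that are 1 throughout where given, and signed folds, a score below 0 where the treated array is lower. The file named for minoxidil array 1 is headed as microsphere and was not used for minoxidil.

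Symbols were taken from these comparison tables: of 28918 probesets listed, 23804 have 1 symbol, 844 several and 4270 none. All 38 members match symbols in the RefSeq table of GRCm38.p6. No file names a genome build, so no coordinates or sequences are given.

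Intensities were put on the log2 scale. A gene took its probeset of highest mean, a choice that differed with the linear mean for Mmp2 alone. Genes whose mean lay past the 25th percentile were fitted with limma 3.58.1 in R 4.3.3 (4 group means, eBayes with an intensity trend, Benjamini-Hochberg adjustment, threshold 0.05). The fit was tested on simulated data. Counts over all 38 members were set beside the same counts over 14980 named genes. No arrays were identical. Plots used matplotlib 3.10.9 under Python 3.11.15.

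The members, roles, marker lists and other matrix genes were chosen with earlier results of these data known. All members could be named. Values in every array were given for up to 3 members of a role with the highest mean, for up to 5 members in each direction of a comparison with the largest differences among those whose groups did not overlap, for the most and least variable member, and for others where a pattern departed. Of the other matrix genes, up to 4 per comparison with the largest differences were named. The alternatives were other scalings, background corrections, filters, probesets and variance models, array weights, omission of each array, and a block for the replicate number.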

Additional observations from a re-analysis of the deposited data

How the results depend on the processing

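With 2 arrays a group, the median standard error of a member's log2 difference was 0.35, and dim members near the background have understated differences. Limma called 0 genes in each of the 4 comparisons and in the test for any difference among the groups under all 13 alternatives other than single omissions (scaling, normexp at offsets 50 and 16, filters, probesets, no trend, array weights, replicate block, minoxidil array 1 left out together with untreated array 1 or with the block, and a threshold of 0.1). Leaving out single arrays gave 0 to 904 genes for minoxidil and 0 to 198 for any difference, both highest without minoxidil array 2, and 0 in the other comparisons. The labels do not say that a number marks a shared animal or day. Deviations of same-numbered arrays correlated at 0.11 to 0.59 between groups, and the replicate block changed no call, with 119, 128, 69 and 38 genes at an unadjusted p below 0.05. With minoxidil array 1 left out and the replicate block, chosen after seeing the data, the minoxidil median of the members was 0.22. Over single omissions the median of the tested members ran from -0.29 to 0.08 for minoxidil, from 0.0201 to 0.61 for keratin, from 0.0259 to 0.55 for microsphere keratin, and from -0.28 to 0.32 between the keratin groups. Quantile normalization moved the median of all genes from 0.10 to -0.00 for keratin and to 0.00 for microsphere keratin. Relative to all genes the members then lay 0.09 and 0.11 higher, against 0.13 and 0.17 before. No direction of a single member was called under any of these settings except without minoxidil array 2.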
